A study of Mus musculus with 20 samples.

Results

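The step at which T-bet- precursors of intestinal intraepithelial lymphocytes (IELPs) gain CD122 was followed in the thymus of a mouse whose T cells are made to lack C-myc. The cells are all those that the sorting record of the TBGR C-myc Δ/Δ Cd4 mouse gives as CD122+T-bet- or CD122-T-bet- and that hold at least 2000 transcripts outside mitochondrial genes and spike-ins. Of 384 cells sorted as such, 265 passed, 137 of them CD122+ and 128 CD122-, and they are part of 1413 passing cells of 1920 sorted in the series. The cell just below the minimum held 1979 transcripts and the cell just above it 2118. The question put to the data is which genes still change at this step when C-myc is deleted, which do not, and which change only then, with the same step in 2 mice with C-myc as reference.

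IELPs are thymocytes that meet a strong, agonist signal through their αβ T cell receptor, lose CD4 and CD8, and go on to seed the gut epithelium as unconventional intraepithelial T cells. CD122 is the β chain of the receptors for interleukin 2 and interleukin 15, and interleukin 15 drives the survival and the later, T-bet dependent maturation of these cells. C-Myc is a transcription factor that binds the sequence CACGTG with its partner Max and is known for driving ribosome production, metabolism and cell division.

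The study sorted single CD4-CD8-TCRβ+ thymocytes into wells, after depletion of CD4+ and CD8+ cells with beads, and measured them by CEL-Seq2, which reads transcripts at their 3′ end and counts molecules by a unique tag (UMI). The paper gives the cells as NK1.1-, while the summary deposited with the data says NK1.1+. All 3 mice are on a C57BL/6 background and carry TBGR, a transgene in which Tbx21 sequences drive ZsGreen, by which T-bet was gated. The TBGR mouse, labelled wild type and 4 weeks old, has unaltered C-myc and gave 2 libraries of 96 wells for each population. The TBGR C-myc fl/fl mouse, 2 weeks old, carries C-myc alleles flanked by loxP sites, serves as the control without deletion, and gave 4 libraries that each held both populations. The TBGR C-myc Δ/Δ Cd4 mouse, 2 weeks old, carries the same alleles and a Cd4-Cre transgene, which deletes C-myc in cells that have expressed Cd4, and gave 2 libraries for each population. The labels give no number of mice. The deposited summary speaks of single mice and the paper of these cells both with a mouse and with mice, and the libraries of a genotype are taken here as repeats of 1 mouse, so no test between populations or genotypes was run and none of the differences between mice was tested. Age and genotype cannot be told apart for the TBGR mouse, and library and population cannot be told apart in the TBGR and C-myc Δ/Δ Cd4 mice.

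Without C-myc, 58 and 79 of 96 cells passed in the CD122+T-bet- libraries and 58 and 70 of 96 in the CD122-T-bet- libraries. These libraries held 314866 and 401730 transcripts in CD122+ cells, with medians of 4926.5 and 4921 per cell, and 298923 and 466555 in CD122- cells, with medians of 4041 and 4304. The reference sums were 1468961 and 980381 transcripts in 186 CD122+ and 174 CD122- cells of the TBGR mouse and 757480 and 810073 in 122 and 120 cells of the C-myc fl/fl mouse. Transcripts were summed over cells and are given per 1000000 transcripts (CPM). A count of 0 allows up to 9.53 and 7.47 CPM in the CD122+ and 10.0 and 6.43 CPM in the CD122- libraries without C-myc, at 3 transcripts a library. Ratios are log2 ratios of CD122+ to CD122- cells after 0.5 transcripts were added to each sum, and their exact 95% intervals cover counting error only. The median ratio of the 2906 genes with a mean of at least 50 CPM over the 6 sums was 0.30 in the TBGR, 0.52 in the C-myc fl/fl and 0.06 in the C-myc Δ/Δ Cd4 mouse, and all ratios below are relative to that median unless said otherwise. Members of a gene list are said to be measured where they pass this mean, and many other members were detected but lay under it. The mean includes the populations compared, so a gene can pass through a high level in 1 of the 6 sums. The filter can thus set part of the counts of calls. A gene is called where its ratio is at least 1 in size and all 4 ratios between single libraries lie on that side of the median. In the TBGR and C-myc Δ/Δ Cd4 mice these are the 4 crosses of 2 and 2 libraries, which all but fixes that the libraries of a called gene do not overlap. In the C-myc fl/fl mouse they are the ratios within each of 4 libraries, which hold fewer cells of each population, so the rule is not alike in the mice.

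Several libraries stood apart before any comparison was made. Loci known only by a predicted gene number or a genomic clone name, a group defined after the data had been seen, took 42.2% and 34.1% of transcripts in the CD122+ libraries without C-myc and 45.9% and 38.9% in the CD122- libraries. In the TBGR mouse they took 18.9% and 21.9% in CD122+ and 30.8% and 41.0% in CD122- cells. In the C-myc fl/fl mouse they took 32.5%, 31.6%, 30.2% and 62.7% in CD122+ and 42.4%, 64.4%, 50.1% and 68.6% in CD122- cells, so that library 4 stood apart among CD122+ cells. Predicted loci were thus more frequent in CD122- cells of both reference mice, while the libraries without C-myc lay closer together. The group of predicted loci does not hold every locus named after a clone, so genes outside it include some of these. Of the 66 pairs among 12 libraries, 30 share all 96 cell barcodes and 36 share none, as the same barcode set was used again, and 0 cells were identical between libraries.

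**Figure D1:**
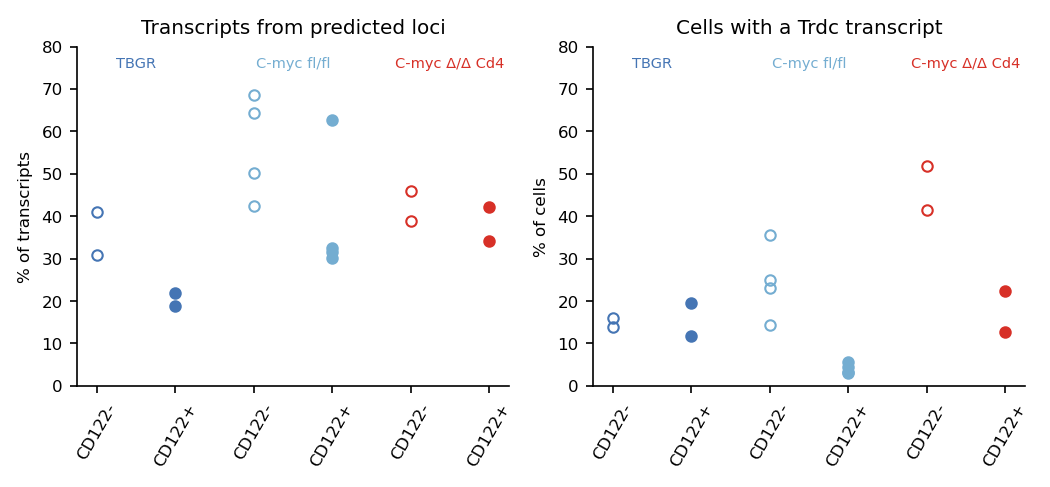
Left, percent of the transcripts of each library that come from predicted loci; right, percent of its passing cells with at least 1 Trdc transcript, for CD122- (open) and CD122+ (filled) libraries of the 3 mice. Without C-myc the CD122- libraries hold 30 and 29 cells with Trdc and the CD122+ libraries 13 and 10.

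Myc itself was low in these data. It was at 44.5 and 9.96 CPM in the CD122+ libraries without C-myc and at 16.7 and 30.0 CPM in the CD122- libraries, so the libraries of the populations overlapped. The ratio of the sums was −0.04 (−1.05 to 0.97), but 2.49 with the cells that hold Trdc left out, from 17 transcripts against 1, and −1.33 without library 1 of the CD122+ cells. In the TBGR mouse Myc was at 46.4 and 62.0 CPM in CD122+ and 12.4 and 14.1 CPM in CD122- cells, a ratio of 1.67. In the C-myc fl/fl mouse it was at 73.8, 125, 135 and 10.6 CPM in CD122+ and 63.0, 14.0, 62.3 and 24.4 CPM in CD122- cells, a ratio of 0.71. A Myc transcript was seen in 14 of 137 CD122+ and 12 of 128 CD122- cells without C-myc, against 53 of 186 and 12 of 174 cells of the TBGR mouse. After each cell was thinned to 2000 transcripts, these shares were 3.65% and 0.781% without C-myc and 10.2% and 2.87% in the TBGR mouse. The sources do not say which exons the deletion removes and the assay reads the 3′ end, so Myc reads can come from an allele that no longer makes the protein. In the sums Myc was at 25.1 CPM in CD122+ cells without C-myc, against 53.8 and 99.0 CPM in the reference mice, but the libraries overlapped. Library 1 without C-myc was level with library 1 of the TBGR mouse, library 4 of the C-myc fl/fl mouse was as low as library 2 without C-myc, and of transcripts outside predicted loci Myc took 76.9 and 15.1 CPM without C-myc against 57.2 and 79.4 CPM in the TBGR mouse. In the CD122- cells without C-myc all but 1 of the Myc transcripts lay in the cells that hold Trdc. The words without C-myc thus name the mouse and not a loss measured in each cell. The values cannot show how many cells had lost the gene, whether they held Trdc or not, and this was not tested.

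The markers that name the step were looked at first. Il2rb encodes CD122, the protein by which the cells were sorted, so its difference is in part fixed by the sort and supports nothing on C-myc. It was at 178 and 256 CPM in CD122+ cells and at 0 and 4.29 CPM in CD122- cells, where 2 transcripts were seen in all. Its ratio was 6.03 (4.48 to 9.41), beside 4.83 in the TBGR and 3.90 in the C-myc fl/fl mouse. In cells thinned to 2000 transcripts, 31.4% of CD122+ cells (25.9% and 35.4% in the libraries) and 0.781% of CD122- cells had an Il2rb transcript, and 50.4% and 1.56% before thinning. Ikzf2, which encodes Helios, a transcription factor of agonist-selected T cells, was at 1232 and 1593 CPM in CD122+ and at 381 and 356 CPM in CD122- cells. Its ratio was 1.91 (1.72 to 2.11), beside 1.67 and 1.03. Tbx21, which encodes T-bet, had at most 3.18 CPM in any library without C-myc.

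Trdc, the constant region of the T cell receptor δ chain, was frequent in this mouse. It was at 254 and 179 CPM in CD122+ and at 381 and 324 CPM in CD122- cells, so the populations did not overlap, but the ratio of −0.76 (−1.06 to −0.47) stayed under the fold for a call. The ratio was −0.73 in the TBGR mouse, also not called, and −4.34 in the C-myc fl/fl mouse, where it was called. Cells with a Trdc transcript were 59 of 128 CD122- cells (46.1%, 37.2 to 55.1) and 23 of 137 CD122+ cells (16.8%) without C-myc. In thinned cells the shares were 32.8% and 11.7% without C-myc, 7.47% and 4.84% in the TBGR mouse, and 13.3% and 0.820% in the C-myc fl/fl mouse. The CD122- cells without C-myc thus had a higher share with Trdc than any of the reference populations.

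**Figure D2:**
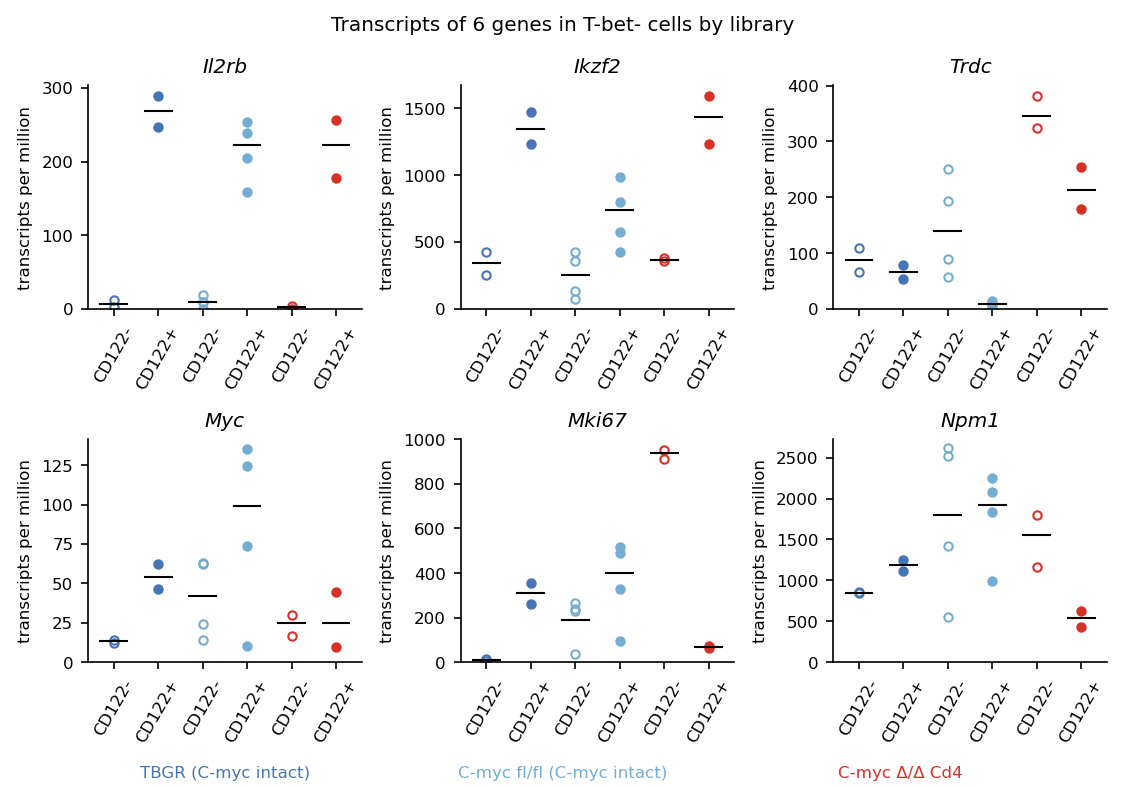
CPM of Il2rb, Ikzf2, Trdc, Myc, Mki67 and Npm1 in each library of the 3 mice, with open points for CD122- and filled points for CD122+ libraries and bars for the sums. Il2rb and Ikzf2 are higher in CD122+ libraries of all 3 mice, while Mki67 is higher in CD122+ cells of the TBGR mouse (309 against 10.2 CPM) and in CD122- cells without C-myc (937 against 67.0 CPM).

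Without C-myc, 311 of 2906 genes were called higher in CD122+ cells (10.7%) and 221 lower (7.60%). The TBGR mouse had 160 higher (5.51%) and 155 lower (5.33%), and the C-myc fl/fl mouse 91 higher (3.13%) and 168 lower (5.78%). Before the rule on libraries 540 genes were past the fold without C-myc, 316 in the TBGR and 307 in the C-myc fl/fl mouse, so the rule took most in the last. The genes called in the same direction in both reference mice, here the reference genes, were 46 higher (1.58%) and 93 lower (3.20%). With no centring on the median the reference genes were 121 higher and 25 lower, while without C-myc the calls were 339 higher and 200 lower, beside 273 and 85 in the TBGR and 365 and 54 in the C-myc fl/fl mouse. A reference gene is said here to be kept where it was called in the same direction without C-myc, lost where its ratio there was under 0.5 in the reference direction, and in between otherwise. Of the 46 higher genes 39 were kept, 4 were in between and 3 lost. Of the 93 lower genes 15 were kept, 16 were in between and 62 lost.

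With all cells counted, the higher reference genes were thus mostly kept and the lower ones mostly not, but for the lower ones this depends on the cells. Without the cells that hold Trdc, 60 of 122 lower reference genes were kept and 16 lost, and without the cells with over 50% of transcripts from predicted loci 15 of 21 were kept and 4 lost. The median ratio of the 46 higher genes was 1.85 in the TBGR and 2.02 in the C-myc fl/fl mouse and 2.73 without C-myc. For all genes it was 0.00 in each mouse. With the Trdc cells left out the reference genes were chosen anew, and 36 of the 48 higher ones were among the 46. The median of these 48 genes without C-myc was 1.69. For 26 of the 46, the ratio without C-myc was larger than in both reference mice, and for 10 it was smaller than in both. The median of the 93 lower genes was −1.40, −1.45 and −0.30, and for 88 of them the ratio without C-myc was smaller in size than in both reference mice. The 122 lower genes chosen anew without the Trdc cells, 84 of them among the 93, had a median of −1.0 without C-myc. Since the genes were chosen by their size in the reference mice, the smaller sizes elsewhere are in part fixed by the choice.

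**Figure D3:**
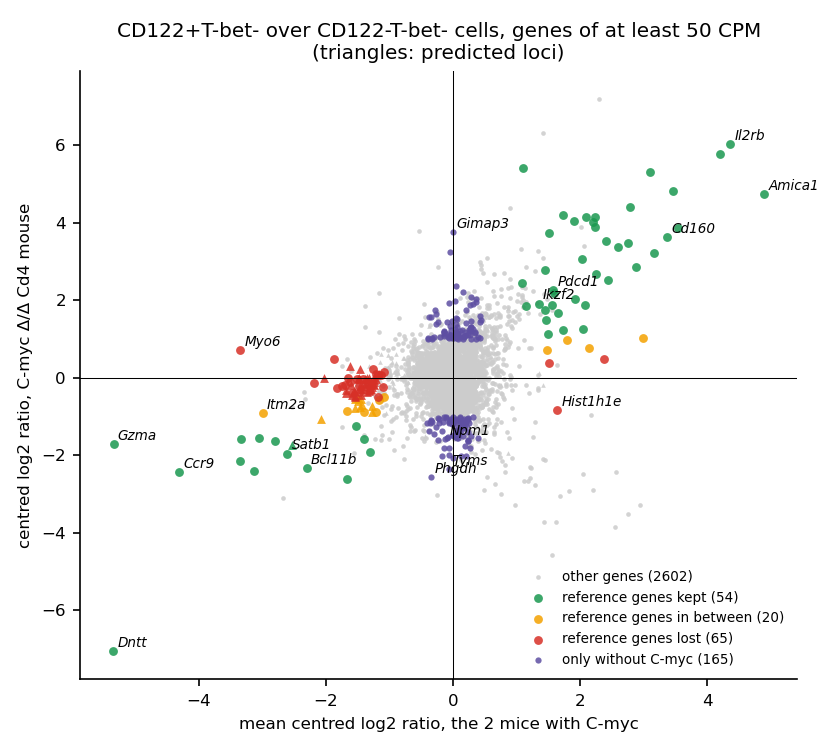
Each point is a gene, with the mean relative log2 ratio of CD122+ to CD122- cells of the 2 reference mice on the x axis and the ratio without C-myc on the y axis, coloured by class, with triangles for predicted loci. With all cells counted, higher reference genes lie at a median of 2.73 on the y axis and lower ones at −0.30. Without the cells that hold Trdc, the 48 higher and 122 lower reference genes chosen anew had medians of 1.69 and −1.0. Of these, 36 and 84 are reference genes in the plot.

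The 39 kept higher genes are 39 of 2906 genes in all. Among them were 3 of the 5 measured genes of natural killer receptors and cytotoxicity. Fcer1g, the signalling γ chain of Fc and natural killer receptors, was at 159 and 209 CPM in CD122+ cells without C-myc and at 3.35 and 2.14 CPM in CD122- cells. Its ratio was 5.79, beside 3.40 in the TBGR and 5.01 in the C-myc fl/fl mouse. Cd7, a surface protein of T and natural killer cells, was at 467 and 550 CPM against 23.4 and 12.9 CPM, a ratio of 4.81 beside 4.37 and 2.57. Cd160, a receptor of intraepithelial and cytotoxic lymphocytes, stood at 270 and 286 CPM against 26.8 and 17.2 CPM (3.64, beside 3.69 and 3.05). Nkg7, a protein of cytotoxic granules, stood at 194 and 212 CPM against 10.0 and 10.7 CPM (4.15, beside 2.52 and 1.68). Amica1, an adhesion molecule of leukocytes, stood at 235 and 301 CPM against 13.4 and 6.43 CPM (4.74, beside 2.91 in the C-myc fl/fl mouse). In the TBGR mouse Amica1 had 109 transcripts in CD122+ and 0 in CD122- cells, which is at least 4.30 when 3 transcripts are taken for the sum at 0.

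Of the 22 measured agonist selection genes 4 were kept higher genes, and of the 17 genes of cytokine receptors and the STAT5 axis 2. Both shares lie above that of all genes, 39 of 2906, though most members of these lists were not reference genes. Il2rb, whose difference is in part fixed by the sort, was not set apart here. Pdcd1, the inhibitory receptor PD-1 that marks agonist-selected IELPs, was at 270 and 271 CPM in CD122+ and at 46.8 and 57.9 CPM in CD122- cells without C-myc (2.27, beside 1.62 and 1.54). Id3, a target of T cell receptor signals, was at 283 and 363 CPM against 93.7 and 122 CPM (1.5, beside 1.60 and 1.33). Pim2, a survival kinase induced through STAT5, was at 165 and 209 CPM against 16.7 and 10.7 CPM (3.74, beside 1.11 and 1.90). Klf2, a transcription factor of thymic exit, had a ratio of 2.78, beside 1.42 and 1.48. With the Trdc cells left out, Pdcd1 had a ratio of 1.47.

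The 15 kept lower genes are 15 of 2906 genes in all. They include 3 of the 7 measured markers of CD4+CD8+ thymocytes and 2 of the 14 genes of αβ T cell identity. The αβ T cell list as a whole did not behave like these 2 genes. Of the 14, 8 were lower in the TBGR mouse (median −1.07), 3 in the C-myc fl/fl mouse (−0.60) and 3 without C-myc (0.16). Of all genes, 5.33%, 5.78% and 7.60% were lower in these mice. Dntt, the terminal transferase of receptor rearrangement, had 1 transcript in CD122+ cells and was at 308 and 244 CPM in CD122- cells without C-myc, a ratio of −7.07 (−12.96 to −5.15). In the C-myc fl/fl mouse it had 0 transcripts in CD122+ and 70 in CD122- cells, at least 4.96 lower on the log2 scale when 3 transcripts are taken for the 0, and in the TBGR mouse its ratio was −3.13. Bcl11b, a transcription factor of T lineage commitment, was at 264 and 199 CPM against 1117 and 1082 CPM (−2.32, beside −2.05 and −2.55). These 2 genes were at least as low, relative to CD122- cells, without C-myc as in the TBGR mouse. Satb1, a chromatin organiser of thymocytes, was at 235 and 281 CPM against 1091 and 902 CPM (−1.96, beside −2.97 and −2.23). Sox13, a transcription factor of γδ T cells, was at 28.6 and 42.3 CPM against 294 and 122 CPM (−2.42, beside −3.14 and −3.13). Of transcripts outside predicted loci Sox13 took 258 CPM in CD122+ cells with Trdc and 2.86 in those without it, and 321 and 330 in CD122- cells, so that without the Trdc cells 1 transcript stood against 53 (−6.21). Thy1, a surface protein of thymocytes, had a ratio of −2.61, and Impdh1, an enzyme of guanine nucleotide synthesis, one of −1.57. The ratios of Bcl11b, Satb1 and Thy1 were −3.53, −2.47 and −3.36 without the Trdc cells.

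Other kept lower genes stood closer to the median without C-myc. Ccr9, the receptor that holds thymocytes to the thymic and gut chemokine Ccl25, was at 200 and 194 CPM in CD122+ and 1308 and 834 CPM in CD122- cells (−2.42, beside −4.52 and −4.08). With the Trdc cells left out, the ratio was −5.31, and it was −6.94 for Gzma (2 transcripts against 147) and −3.72 for Cd4 (4 against 28). Gzma, a granule protease, was at 6.35 and 256 CPM against 616 and 364 CPM (−1.71, beside −5.29 and −5.38). Its value rests on library 2 of the CD122+ cells, since without that library the ratio was −5.85, and without library 1 it was −0.99. Cd4 was at 22.2 and 7.47 CPM against 56.9 and 32.2 CPM (−1.59, beside −3.58 and −3.07). Its ratio was −0.81 without library 2 of the CD122+ cells, and it turned to 0.87 where predicted loci were left out and cells needed 2000 transcripts of other genes.

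Few higher reference genes were not kept. The 3 lost genes were Cdc25b, Hist1h1e and Tagln2. Cdc25b, a phosphatase that starts mitosis, was at 54.0 and 52.3 CPM in CD122+ and 30.1 and 40.7 CPM in CD122- cells without C-myc (0.47, beside 2.97 and 1.79). Hist1h1e, a linker histone, was at 82.6 and 54.8 CPM against 134 and 103 CPM (−0.83, beside 2.20 and 1.09). It was the only reference gene for which all 4 ratios between libraries without C-myc lay on the other side of the median, between −1.33 and −0.36. Tagln2, an actin-binding protein, had 0.38 beside 1.82 and 1.21, and 1.21 without the cells that hold Trdc. The 4 genes in between were Anxa2, a membrane-binding protein (276 and 264 CPM against 167 and 142 CPM, 0.77 beside 2.06 and 2.21), S100a4 (1.01), Rexo2 (0.98) and Efhd2 (0.72). S100a4 had 0 transcripts in library 2 of the CD122- cells, so its ratio was at least 2.59 without library 1, with 3 transcripts taken for the 0, and −0.41 without library 2. Tagln2 had 1.11 without that library.

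The 62 lost lower genes were a mixed class. Of them, 40 are predicted loci and 22 are other genes, and of all 93 lower reference genes 51 are predicted loci. The predicted loci had medians of −1.40, −1.37 and −0.29, and the other 42 genes −1.43, −1.57 and −0.45, so the medians shifted alike. The classes were not alike, since 14 of the 15 kept lower genes are other genes and 1 is a predicted locus. Gm10800, the most abundant of all genes, was at 308604 and 259109 CPM in CD122+ and at 349665 and 284194 CPM in CD122- cells without C-myc, and the libraries overlapped (−0.20, beside −1.28 and −1.19). Dusp10, a phosphatase of stress kinases, had −0.14 beside −1.92 and −2.44, and Mid1, a ubiquitin ligase of microtubules, −0.26 beside −2.07 and −1.58. Myo6, a motor protein, was at 22.2 and 229 CPM against 141 and 42.9 CPM (0.71, beside −3.89 and −2.80). Without library 2 of the CD122+ cells Myo6 had −1.76, without library 1 it had 1.35, and without the Trdc cells −2.58.

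This class depends on which cells and libraries are counted, beyond the 2 sets of cells given above. Scaling each cell to 2000 transcripts gave 23 kept and 23 lost of 89. With predicted loci left out and the same cells, 19 of 62 were kept and 33 lost. Leaving out library 1 of the CD122+ cells without C-myc gave 28 kept, 39 in between and 25 lost, and leaving out library 2 gave 6 in between. The median of the lower genes was −0.68 and 0.10 in these cases. Leaving out library 2 of the CD122- cells of the TBGR mouse gave 48 lower reference genes, of which 13 were kept, 6 in between and 29 lost. The higher reference genes were kept more evenly, with 36 of 48 kept without the Trdc cells, 36 of 43 with scaled cells, 52 of 60 without predicted loci and 39 of 43 without the cells over 50%. Of the 48 genes without the Trdc cells 9 were lost, and with no centring 79 of 121 were kept and 32 lost. Leaving out any 1 library gave between 36 and 46 kept higher genes, and 5, 5, 6 and 5 were lost without libraries 1, 2, 3 and 4 of the C-myc fl/fl mouse.

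A further set of genes was called without C-myc while its ratio was under 0.5 in size in both reference mice. These were 83 higher (2.86%) and 82 lower (2.82%) genes. Gimap3, a GTPase that aids lymphocyte survival, was at 184 and 234 CPM in CD122+ and 6.69 and 19.3 CPM in CD122- cells without C-myc (3.77, beside 0.20 and −0.20). Tnfrsf18, the costimulatory receptor GITR, was at 114 and 129 CPM against 3.35 and 17.2 CPM (3.26, beside −0.14 and 0.07). Nfkbia, the inhibitor of NF-κB that the factor itself induces, was at 527 and 565 CPM against 104 and 135 CPM (2.10, beside 0.15 and 0.42). The cytokine gene Ltb had 2.38 and Fam65b, a regulator of T cell migration, 2.21. With single libraries left out, the higher genes of this set numbered between 56 and 106, and they numbered 34 with no centring and 51 with each cell scaled.

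The 82 lower genes of this set, 2.82% of all genes, include 12 of 28 measured genes of ribosome biogenesis. Other lists gave few, with 3 of 29 for G2/M, 3 of 31 for chaperones, 2 of 22 for a mixed list of metabolic supply and cell cycle entry, 2 of 29 for DNA replication, 4 of 70 for oxidative phosphorylation and 2 of 37 for translation factors. Phgdh, the first enzyme of serine synthesis, was at 15.9 and 24.9 CPM in CD122+ and 87.0 and 144 CPM in CD122- cells without C-myc (−2.55, beside −0.21 and −0.49). Tyms, which makes thymidylate for DNA, was at 22.2 and 22.4 CPM against 124 and 107 CPM (−2.37, beside −0.03 and −0.10). Npm1, the nucleolar protein nucleophosmin, was at 429 and 630 CPM against 1161 and 1800 CPM (−1.57, beside 0.18 and −0.42). Lyar, a nucleolar protein, had −2.08, Atad2, a chromatin factor, −2.03, and Lmnb1, a nuclear lamin, −2.03. Once the Trdc cells were left out, Npm1 had −0.56, Lyar −0.96 and Phgdh −1.54, and the lower genes of this set numbered 26. They numbered 41 with no centring, 33 with each cell scaled and 130 without library 1 of the CD122- cells.

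Of 19 gene lists, G2/M and mitosis gave the widest difference between the TBGR mouse and the mouse without C-myc. Of 29 measured genes of G2/M and mitosis, 0 were called higher and 24 (82.8%, beside 7.60% of all genes) lower without C-myc, with a median of −2.16 and −2.50 to −1.76 in the ratios between libraries. In the TBGR mouse 22 were called higher, beside 5.51% of all genes, and 0 lower (1.89), and in the C-myc fl/fl mouse 1, Cdc25b, was higher and 0 lower (0.04), with a range from −1.0 to 2.11 over its libraries. Mki67, the proliferation marker Ki-67, was at 73.1 and 62.2 CPM in CD122+ and 910 and 954 CPM in CD122- cells without C-myc, a ratio of −3.85 (−4.31 to −3.44). It was at 353 and 259 CPM against 14.5 and 6.04 CPM in the TBGR mouse (4.55), and at 516, 490, 329 and 95.5 CPM against 267, 37.2, 240 and 232 CPM in the C-myc fl/fl mouse (0.55). The CD122- cells without C-myc thus lay above every other library for Mki67, and their CD122+ cells below all CD122+ libraries of both reference mice. Cdk1, the kinase of mitotic entry, had −2.90 (beside 3.99 and 0.41) and Cenpe, a kinetochore motor, −3.29 (beside 5.85 and 0.03). In thinned cells, 5.11% of CD122+ and 34.4% of CD122- cells had a Mki67 transcript without C-myc (12.4% and 40.6% before thinning), against 21.5% and 0.575% in the TBGR mouse and 29.5% and 15.8% in the C-myc fl/fl mouse.

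The genes of DNA replication moved with those of mitosis. Of 29 measured, 0 were higher and 16 (55.2%, beside 7.60% of all genes) lower without C-myc (median −1.06), against 17 higher and 0 lower in the TBGR mouse (1.09) and 0 and 0 in the C-myc fl/fl mouse (0.29). Rrm2, a subunit of ribonucleotide reductase, had −2.92 beside 2.96 and 0.68. The DNA ligase Lig1 had −2.12 and the checkpoint protein Clspn −2.34, while Mcm6, a subunit of the replicative helicase and the most abundant gene of the list over the 3 mice, had −0.39 and was not called. The summed level of the G2/M list was 4627 and 4565 CPM in CD122+ and 12431 and 13583 CPM in CD122- cells without C-myc, 9316 and 9465 CPM against 3531 and 2728 CPM in the TBGR mouse, and 12294, 12965, 10100 and 5389 CPM against 12019, 2493, 7508 and 7342 CPM in the C-myc fl/fl mouse. Without the cells that hold Trdc, the G2/M median was −1.76 with 15 of 25 genes lower and 10 of 24 replication genes were lower. Scaling each cell gave 8 of 23 replication genes lower.

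Of the genes of ribosome production, many were lower in CD122+ cells without C-myc when all cells were counted, but only 1 of 26 (median −0.27) when the cells that hold Trdc were left out. Of 28 measured genes of ribosome biogenesis 0 were higher and 14 lower, beside 7.60% of all genes (median −1.09, −1.17 to −0.56 over libraries), while in the TBGR mouse 1, Nhp2, was higher and 0 lower (0.20) and in the C-myc fl/fl mouse 0 and 0 (−0.18). The list summed to 2960 and 3199 CPM in CD122+ and 4928 and 7870 CPM in CD122- cells without C-myc, so all libraries were apart. Beside Npm1 these were for instance Nhp2, of the complex that modifies ribosomal RNA (−1.88), and Nop58, of the same kind of complex (−1.08). Leaving out library 2 of the CD122- cells gave 7 lower genes, with −0.52 for Nhp2 and −0.77 for Nop58, and scaling each cell gave 5 of 26. Other choices gave more lower genes. They were 20 of 34 (−1.25) without the cells over 50% from predicted loci, beside 391 of 3442 genes in all. Where predicted loci were left out and cells needed 2000 transcripts of other genes they were 22 of 40 (−1.33), beside 487 of 4217. They numbered 17 without library 1 of the CD122+ and 16 without library 1 of the CD122- cells. Without the cells that hold Trdc Nhp2 had 0.00 and Nop58 0.16.

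Cells with and without Trdc differed within the CD122- libraries without C-myc. Of transcripts outside predicted loci, the ribosome biogenesis list took 14600 CPM in the 59 cells with Trdc and 6012 in the 69 cells without it, and Npm1 3447 and 1246. The G2/M list took 23947 and 19919 CPM in these cells, and the αβ T cell list 14474 and 16560. Predicted loci made up 31.1% of the transcripts of cells with Trdc and 54.1% of those of the others. The CD122- cells of the C-myc fl/fl mouse differed in the same way, with 18306 and 11124 CPM for the ribosome biogenesis list, 5617 and 2627 for Npm1 and 33.7% and 66.1% from predicted loci. In the TBGR mouse these were 7141 and 7232 CPM, 1604 and 1258 CPM, and 35.2% and 36.1%. In the CD122+ cells without C-myc, the G2/M list took 6257 CPM in cells with and 7678 in cells without Trdc. The G2/M list without C-myc thus took more in CD122- cells whether or not they held Trdc, and the ribosome biogenesis list mainly in those that did. The part of the Trdc cells in the other results was not tested beyond the values given without them.

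Other lists of growth and metabolism lay closer to the median of all genes, and their counts of calls depend on the fold. At 2-fold the lower genes were 2.86% of ribosomal proteins, 5.41% of translation factors and 16.1% of chaperones, beside 7.60% of all genes. At 1.5-fold they were 27 of 70, 9 of 37 and 14 of 31, beside 498 of 2906. Of 70 measured cytosolic ribosomal proteins 0 were higher and 2, Rpl23a and Rps27l, lower without C-myc (−0.48, against 0.20 and 0.17), and 3 of the 70 lay above the median of all genes. Rpsa, the most abundant over the 3 mice, had −0.85 and was not called. The list summed to 39125 and 41964 CPM in CD122+ and 48344 and 61234 CPM in CD122- cells. Of 37 translation factors 0 were higher and 2, Eif1ax and Eif2s2, lower (−0.36, against 0.08 and 0.05), and Eef1b2, an elongation factor subunit that the study names, had −0.87 and was not called. Leaving out the Trdc cells gave medians of −0.16 and 0.04, with 1 lower gene in each list, and scaling each cell gave 0 in each. Of 31 chaperones 0 were higher and 5, Hspd1, Hsp90aa1, Ptges3, Fkbp4 and Stip1, lower (−0.59, against 0.16 and −0.14), and 0 of 30 were lower without the Trdc cells, with a median of −0.15. The lower genes were more numerous without the cells with over 50% from predicted loci, in these lists and among all genes. They were 10 of 70 ribosomal proteins, 6 of 39 translation factors and 9 of 32 chaperones, beside 391 of 3442 genes in all. Where predicted loci were left out and cells needed 2000 transcripts of other genes, they were 11 of 72, 6 of 42 and 10 of 32. In that case 487 of 4217 genes in all were lower. The translation factors and chaperones named, and Rpl23a, were chosen after their values were seen. Leaving out library 2 of the CD122- cells gave 2 lower chaperones and leaving out library 1 gave 8, and the lower ribosomal proteins numbered 4 without library 1 of the CD122+ and 6 without library 1 of the CD122- cells.

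Calls in energy metabolism and in a mixed list are set beside the 10.7% higher and 7.60% lower of all genes. Of 11 glycolysis genes 1 was higher, Pfkp, a phosphofructokinase (1.59), or 9.09%, and 0 lower (median −0.22, against −0.16 and 0.35). Of 70 genes of oxidative phosphorylation 0 were higher and 5 (7.14%) lower (−0.23, against 0.11 and 0.13), namely Cycs, which carries electrons, and the complex I subunits Ndufa12, Ndufab1, Ndufc2 and Ndufs5. Of 22 genes of a mixed list of amino acid, iron, polyamine and nucleotide supply with cyclins, their kinases and Ran, 2 (9.09%) were higher and 7 (31.8%) lower (−0.33, against 0.37 and −0.06). The count is thus not one of supply genes alone. The 2 higher genes of that list were Slc7a1, a transporter of basic amino acids, and Ccnd2, a cyclin known to drive entry into S phase. Slc7a1 and the genes of oxidative phosphorylation were chosen after their values were seen. Ccnd2 was at 1362 and 1583 CPM in CD122+ and 251 and 195 CPM in CD122- cells without C-myc (2.72, beside 0.08 and 0.86). Of the C-Myc network, Myc's partners and rivals, 12 genes were detected, but only 3 were measured and 0 were called (0.47, against −0.30 and −0.13).

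Genes of signalling and survival stood higher in CD122+ cells without C-myc than the same lists in the reference mice. The shares of all genes were 10.7% higher and 7.60% lower without C-myc, 5.51% and 5.33% in the TBGR and 3.13% and 5.78% in the C-myc fl/fl mouse. Of 22 measured agonist selection genes 13 (59.1%) were higher and 0 lower (median 1.34, 1.08 to 1.87 over libraries). In the TBGR mouse 6 were higher and 3 lower (−0.11), and in the C-myc fl/fl mouse 7 and 2 (0.63). The C-myc fl/fl median was 0.22 without library 3 and 0.99 without library 2 of that mouse. It was −0.03 without the Trdc cells and 1.19 without the cells over 50% from predicted loci, beside 1.19 and 1.9 without C-myc. Nr4a1, an early target of the T cell receptor, was at 394 and 625 CPM in CD122+ and 107 and 187 CPM in CD122- cells (1.69, beside −0.77 and 1.21). Of 17 genes of cytokine receptors and the STAT5 axis 12 (70.6%) were higher and 0 lower (1.39, against −0.23 and 0.24). With each cell scaled 7 of 17 were higher, and the median was 0.89 with the Trdc cells left out. Over libraries the median ran from −0.18 to 1.06 in the C-myc fl/fl mouse and from 1.12 to 1.51 without C-myc. In the C-myc fl/fl mouse it was −0.04 without the Trdc cells and 0.80 without the cells over 50% from predicted loci. Il2rb, whose difference is in part fixed by the sort, was not set apart in these counts. Bcl2, which protects cells from death, was at 1070 and 1394 CPM against 271 and 262 CPM (2.18, beside −0.25 and 0.71). In thinned cells, 78.1% of CD122+ and 33.6% of CD122- cells had a Bcl2 transcript (92.0% and 56.2% before thinning).

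Immediate early and stress genes, which also mark handling of cells, were higher in CD122+ cells without C-myc in 14 of 18 cases (77.8%, beside 10.7% of all genes) and lower in 0 (1.68, 1.46 to 1.84 over libraries), against 0 and 0 in the TBGR (0.10) and 2 and 0 in the C-myc fl/fl mouse (0.36). The C-myc fl/fl median of these genes was 0.18 without library 3 and 0.71 without library 2 of that mouse. It was 0.07 without the Trdc cells and 0.95 without the cells over 50% from predicted loci, beside 1.47 and 1.86 without C-myc. Zfp36l1, an RNA-binding protein and the most abundant of these genes over the 3 mice, had 2.30 beside 0.68 and 0.83. The part of handling in the agonist selection result was not tested. Of 22 genes of T cell receptor and CD3 signalling 4 (18.2%) were higher and 1 (4.55%, beside 7.60% of all genes) lower (0.58, against −0.55 and −0.05), the higher ones being Fyn, Ptpn22, Ptpn6 and Nfatc1 and the lower one the adaptor Lat (−1.24). Of 13 interferon-stimulated genes 5 (38.5%) were higher, Gbp10, Ifi27l2a, Ifi203, Samhd1 and Slfn2, and 0 lower (0.81, against −0.42 and −0.33). Of the genes of these lists, Fyn, Ptpn6, Nfatc1, Ifi27l2a, Ifi203 and Samhd1 were chosen after their values were seen. With each cell scaled 1 of 16 interferon-stimulated genes was higher, with a median of 0.30. The median was 0.38 without library 2 of the CD122- cells and 0.29 without the cells that hold Trdc, while 8 genes were higher without library 1 of the CD122- cells.

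**Figure D4:**
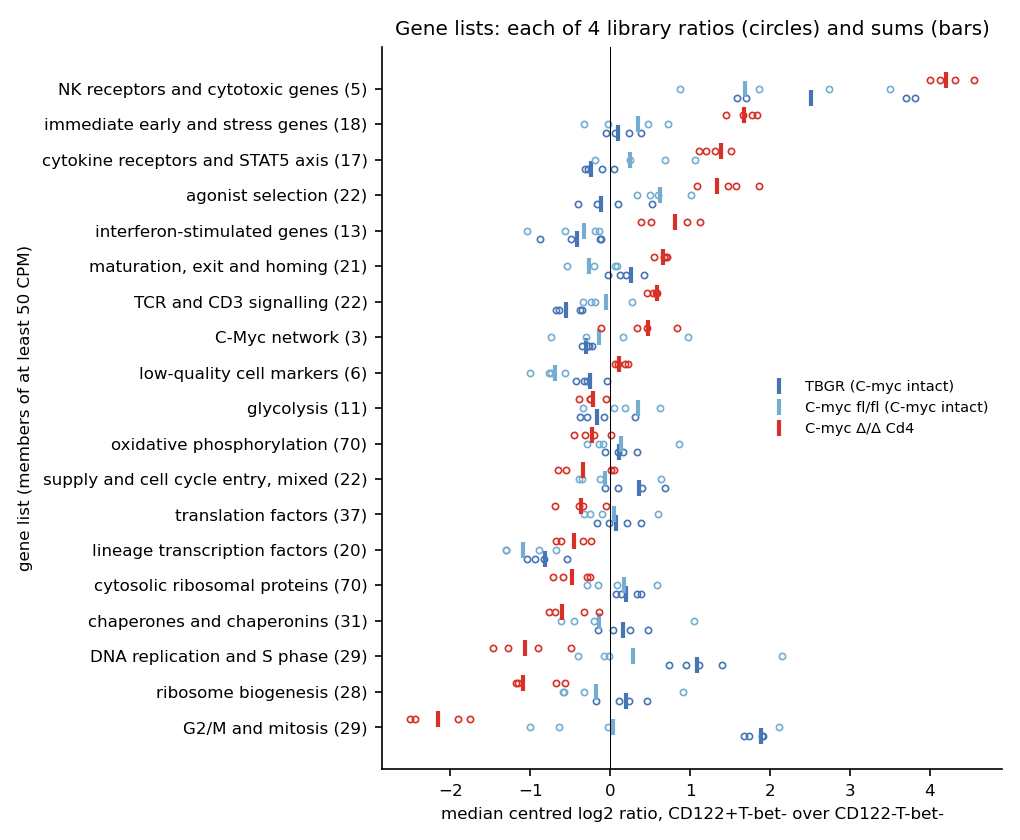
Median relative log2 ratio of CD122+ to CD122- cells for 19 gene lists in the 3 mice, with bars for sums and circles for the 4 ratios between libraries. Without C-myc the G2/M list lies at −2.16 and the immediate early list at 1.68.

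Lists of maturation and identity completed the comparison, and are read beside the 10.7% higher and 7.60% lower of all genes. Of 41 genes of natural killer receptors and cytotoxicity 33 were detected and 5 measured. Of these 5, 4 were higher and 1, Gzma, lower without C-myc (4.21, against 2.52 and 1.68). Genes can pass the minimum through their level in the CD122+ cells without C-myc, so these counts are not free of the filter. Xcl1, a chemokine of cytotoxic cells, was at 343 and 264 CPM in CD122+ cells and had 1 transcript in CD122- cells (7.20, 5.29 to 13.09, beside 3.15 and 1.43). Of 21 genes of maturation, exit and homing 9 (42.9%) were higher and 2 (9.52%) lower (0.67, against 0.26 and −0.27), among them B2m, the light chain of class I molecules (1.80). Of 20 lineage transcription factors 4 were higher and 6 lower (−0.45, against −0.81 and −1.09). Id2, which mature IELPs carry, was at 286 and 443 CPM against 70.3 and 38.6 CPM (2.80, beside −0.05 and 0.92). Of 6 markers of low-quality cells 2 were higher, Neat1 and Malat1, which was chosen after its values were seen, and 0 lower (0.11, against −0.25 and −0.69). Of the 13 measured genes that the study names 7 were higher and 1 lower (1.5, against 0.32 and 0.71), and since the study chose them on these libraries they are not independent evidence of a direction.

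Genes chosen in a single reference mouse were followed in the others, so that the values there are free of the choice. Of the 91 genes called higher in the C-myc fl/fl mouse, 46 were called higher in the TBGR mouse and 69 without C-myc, where 0 were called lower and their median was 1.86. Of the 160 called higher in the TBGR mouse, 46 were called higher in the C-myc fl/fl mouse and 67 without C-myc, where 45 were called lower and the median was 0.52. These counts stand beside 10.7% of all genes called higher and 7.60% called lower without C-myc. The 2 sets come from rules on libraries that are not alike, and the difference between them was not tested. Of the 168 genes lower in the C-myc fl/fl mouse, 93 were lower in the TBGR mouse and 23 without C-myc, where 2 were higher (−0.24). Of the 155 lower in the TBGR mouse, 93 were lower in the C-myc fl/fl mouse and 19 without C-myc, where 6 were higher (−0.22). Seen from the other side, the 311 genes higher without C-myc include 67 that were higher and 6 that were lower in the TBGR mouse, and 69 and 2 in the C-myc fl/fl mouse. The 221 lower genes include 19 that were lower and 45 that were higher in the TBGR mouse, and 23 and 0 in the C-myc fl/fl mouse.

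Markers of other thymic cells were looked at in the libraries without C-myc, and their part in the results was not tested. Their counts of calls stand beside 10.7% higher and 7.60% lower of all genes. Of 19 γδ T cell markers 6 were measured, 1, Tcrg-C4, higher and 1, Sox13, lower (−0.56), and the list summed to 1347 and 1245 CPM in CD122+ and 1492 and 1247 CPM in CD122- cells, led by Tcrg-C1 in CD122+ and by Trdc in CD122- cells. Of 21 markers of CD4+CD8+ thymocytes 7 were measured, 0 higher and 6 lower (−1.59), with 642 and 702 CPM against 2857 and 2178 CPM, led by Ccr9. Their defining genes Rag1 (0 and 2.49 CPM against 20.1 and 30.1 CPM) and Ptcra (0 and 0 against 30.1 and 107 CPM) were low, with more in CD122- cells. Of 15 markers of CD4 or CD8 single positive thymocytes 8 were measured, with Runx3, S1pr1 and Klf2 higher and Cd4 and Nsg2 lower (−0.20), summing to 1216 and 1536 CPM against 903 and 926 CPM, led by Lef1. Of 15 genes of αβ T cell identity 14 were measured, 0 higher and 3, Lat, Thy1 and Bcl11b, lower (0.16), with 6390 and 7873 CPM against 8698 and 9006 CPM, led by Trbc1. Thymocyte markers were thus present in both populations and those of CD4+CD8+ cells mostly in CD122- cells.

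Lists of agonist-selected and mature cells summed to more in CD122+ cells. Their counts of calls are read beside the 10.7% higher and 7.60% lower of all genes. The minimum that members must pass counts these CD122+ cells too, so it can set part of these counts. Of 12 markers of PD-1+ IELPs 9 were measured, 7 higher and 0 lower (1.91), with 3938 and 4421 CPM against 1074 and 1130 CPM, led by Ikzf2. Of 15 markers of mature T-bet+ IELPs 4 were measured, 4 higher and 0 lower (3.50), with 1302 and 1282 CPM against 141 and 83.6 CPM, led by Id2. Of 12 markers of regulatory T cells 4 were measured, 3 higher and 0 lower (2.22), with 867 and 824 CPM against 191 and 349 CPM, led by Nrp1 in CD122- and in CD122+ cells by Tnfrsf9 (454 and 371 CPM against 6.69 and 25.7 CPM), while the defining gene Foxp3 was at 22.2 and 24.9 CPM against 0 and 4.29 CPM. Nrp1 (3.18 and 7.47 CPM against 23.4 and 92.2 CPM) and Gpr83 (15.9 and 7.47 CPM against 63.6 and 34.3 CPM), which were under the minimum for calls, went the other way. Tnfrsf9 passes that minimum by its level in the CD122+ cells without C-myc alone. Of 12 markers of NKT cells 3 were measured and 0 called (0.77), with 413 and 351 CPM against 258 and 231 CPM, led by Plac8, and Il13 was at 0 while the defining gene Zbtb16 was at 12.7 and 19.9 CPM against 20.1 and 4.29 CPM.

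Cells outside the T lineage left few transcripts, with library 2 of the CD122+ cells apart. Calls of their markers also stand beside 10.7% higher and 7.60% lower of all genes. Of 13 B cell markers 1 was measured, Ighm, and it was not called (0.84). The list summed to 133 and 590 CPM in CD122+ and 164 and 133 CPM in CD122- cells, Vpreb3 was at 0, and Cd79a was at 42.3 CPM in that library and at 0 in the others. Of 21 myeloid and dendritic markers 2 were measured, 1 higher, Fcer1g, and 0 lower (3.26), with 327 and 784 CPM against 120 and 98.6 CPM, led by Fcer1g in CD122+ and by Cst3 in CD122- cells. Csf1r was at 0, and Cd74, also a B cell gene, was at 112 CPM in library 2 of the CD122+ cells and at most at 2.14 CPM in the others. Of 11 markers of thymic epithelium and stroma 0 were measured, Krt5, Foxn1 and Prss16 were at 0, and the sums were 168 and 117 CPM against 120 and 72.9 CPM, led by Pecam1 in CD122+ and by Psmb11 in CD122- cells. Of 7 erythrocyte markers 4 were detected and 0 measured.

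Promoters were searched for CACGTG, the sequence that C-Myc and Max bind, in windows from 250 bases before to 50 after the start site taken from RefSeq (build GRCm38.p6). The motif reads the same on both strands. It was present in 11 of the 68 lower genes called only without C-myc that have a window (16.2%), in 8 of the 69 higher ones (11.6%), in 23 of the 174 genes called lower without C-myc (13.2%) and 27 of the 245 called higher (11.0%), in 2 of 28 kept higher genes and in 0 of 16 lost lower genes. Of all measured genes 272 of 2173 held it (12.5%), and of all windows 2349 of 32851 (7.15%). Among 17 lists it was present in 9 of 28 translation factors, 6 of 16 genes of the mixed list of supply and cell cycle entry, 5 of 24 DNA replication genes, 2 of 3 genes of the C-Myc network, 2 of 15 T cell receptor signalling genes, 3 of 23 ribosome biogenesis genes, 6 of 50 ribosomal proteins, 3 of 25 chaperones and 2 of 17 lineage transcription factors. It was present in 1 of 11 glycolysis genes, 2 of 24 G2/M genes, 4 of 57 genes of oxidative phosphorylation and 1 of 15 of the STAT5 list. It was in 0 of 15 agonist selection, 0 of 14 maturation, 0 of 8 interferon-stimulated and 0 of 4 natural killer genes. The windows of the 3 most abundant motif holders among the lower genes called only without C-myc are shown to let the motif be seen in place, and Tomm20 and Paics were chosen after their values were seen. Capitals mark CACGTG, which begins 75 bases before the start site of Tubb5, a tubulin (−1.01, chr17:35838252-35838551, minus strand). It begins 126 bases before that of Tomm20, an import receptor of mitochondria (−1.05, chr8:126945872-126946171, minus strand), and 203 bases before that of Paics, a purine synthesis enzyme (−1.16, chr5:76951052-76951351, plus strand). A match is a description and not a binding site.
Tubb5: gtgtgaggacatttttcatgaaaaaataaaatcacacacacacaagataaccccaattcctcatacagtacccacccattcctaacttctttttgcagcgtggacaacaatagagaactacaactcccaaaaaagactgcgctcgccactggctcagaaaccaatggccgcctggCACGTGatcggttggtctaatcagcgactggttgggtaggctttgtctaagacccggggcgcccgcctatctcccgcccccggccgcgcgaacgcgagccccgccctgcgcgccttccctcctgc
Tomm20: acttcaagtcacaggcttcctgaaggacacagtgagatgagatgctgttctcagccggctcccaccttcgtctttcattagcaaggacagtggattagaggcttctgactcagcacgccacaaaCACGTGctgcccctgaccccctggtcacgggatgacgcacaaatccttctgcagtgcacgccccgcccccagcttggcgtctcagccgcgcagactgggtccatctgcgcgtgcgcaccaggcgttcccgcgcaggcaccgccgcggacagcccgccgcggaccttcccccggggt
Paics: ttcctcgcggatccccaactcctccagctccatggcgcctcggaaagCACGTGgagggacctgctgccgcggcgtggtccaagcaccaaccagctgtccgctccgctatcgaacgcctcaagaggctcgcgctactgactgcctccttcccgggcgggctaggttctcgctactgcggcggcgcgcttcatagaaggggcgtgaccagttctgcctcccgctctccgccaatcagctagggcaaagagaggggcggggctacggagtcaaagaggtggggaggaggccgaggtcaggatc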

How the data were processed

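The authors demultiplexed reads with bcl2fastq 2.17.1.14 and aligned them with BWA 0.6.2-r126, as their processing notes say, to the GENCODE VM9 transcripts. They deposited estimated counts of transcripts (expected counts, listed as other among the units), made from UMIs of 6 bases (4096 tags) by a correction for repeated tags, and did not normalize them between cells. The deposited sorting record, another column that is not a measurement (unit other), gives the population of each well. The values were checked to be complete, at least 0 and convertible to whole UMIs, and were rounded to whole transcripts. Wells without a cell were left out of sums. Cells needed 2000 transcripts outside mitochondrial genes and spike-ins, and 119 cells without C-myc had fewer. No passing cell had over 2% of its transcripts from Kcnq1ot1, a limit of the paper. Cells were sorted singly and no doublet caller was run.

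CPM were computed here from sums over cells. Intervals are exact at 95%, Poisson for sums, binomial (Clopper-Pearson) for shares and conditional binomial for ratios. Genes named are the markers, those the study names, the 6 of each class and direction with the largest mean ratio in the reference mice, the 5 in each direction with the largest ratio among those called only without C-myc, up to 4 of each list with its most abundant gene over the 3 mice or in a population without C-myc, and the defining markers of other cells. Some genes that these rules name are not reported here. The 31 gene lists, the members and the rules were chosen with earlier results of these data known. Shares of cells were compared after thinning each cell to 2000 transcripts with seed 1. A sum at 0 was taken as 3 transcripts for a bound. The bounds of Amica1, Dntt and Birc5, which had 56 and 0 transcripts in the TBGR mouse (at least 3.34), change none of the medians. Alternatives were other scalings, filters, folds and sets of cells, and leaving out each library. Promoters come from RefSeq, build GRCm38.p6. Calculations used python 3.11.15, numpy 2.4.6, pandas 2.3.3, scipy 1.17.1 and matplotlib 3.10.9 and were tested on simulated data.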

Additional observations from a re-analysis of the deposited data

Results flagged for a closer look

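Among 27 groups of 4 values from the libraries of the C-myc fl/fl mouse, 4 held a value far from the others. Whether this is more than chance gives was not tested. Library 4 of the CD122+ cells of that mouse had 62.7% of transcripts from predicted loci and 4.20% from ribosomal protein genes. In the ratios within its libraries, the median of ribosome biogenesis genes reached 0.91 and that of DNA replication genes 2.15 in library 2.

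For 5 lists every ratio between libraries without C-myc lay on the other side of the median from every ratio in the TBGR mouse, and these differences were not tested. Their medians without C-myc were −0.48 for ribosomal proteins, −1.06 for DNA replication, −2.16 for G2/M and mitosis, 0.58 for T cell receptor signalling and 0.81 for interferon-stimulated genes. The low-quality markers did the same at 0.11. The interferon-stimulated genes and the low-quality markers also lay opposite to every library of the C-myc fl/fl mouse, which was not tested either.

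Wells without a cell held transcripts. Their median was 12 and 18 in the CD122+ libraries and 11 and 22 in the CD122- libraries without C-myc, with at most 176 in a well.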

How the results depend on the processing

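No paired analysis was possible for the TBGR and C-myc Δ/Δ Cd4 mice because each of their libraries holds 1 population, while in the C-myc fl/fl mouse the ratios were taken within libraries that hold both. The libraries of a genotype are taken as technical repeats of 1 mouse. The reading of the data rests on 716596 and 765478 transcripts, and genes under a mean of 50 CPM were not called. Of 378 counts and medians under the alternatives 265 stayed within their limits, 112 moved and 1 reversed. Of 6610 ratios of 260 named genes 6280 stayed within their counting intervals, 328 moved and 2 reversed, and of 1020 shares of cells 309 stayed and 711 moved, as thinning lowers every share. Where a value below differs from the report the cause was not tested, except that other filters and folds change the number of genes that can be called. Those that leave out predicted loci or the cells rich in them were chosen after seeing the data, as was thinning outside predicted loci.

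With no centring there were 121 higher reference genes, of which 79 were kept, 10 in between and 32 lost (median without C-myc 1.73), and 25 lower ones, with 2 in between and 12 lost (−0.86). Genes called only without C-myc were then 34 higher and 41 lower. With each cell scaled to 2000 transcripts the median of higher reference genes was 2.11, and of the lower ones (−0.71) 23 were kept, 43 in between and 23 lost. The calls without C-myc were then 133 lower, with 51 higher and 33 lower only there.

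With genes from a mean of 20 CPM there were 86 higher reference genes, 71 kept, 8 in between and 7 lost (2.33), and 147 lower ones, 28 kept and 28 in between. The calls were 663 higher and 513 lower, with 149 and 158 only without C-myc. From 100 CPM there were 24 higher reference genes, 22 kept, 1 in between and 1 lost (2.18), and 61 lower ones with 3 in between. The calls were 170 higher and 90 lower, with 46 and 32 only without C-myc. At a fold of 1.5 there were 90 higher reference genes, 73 kept, 1 in between and 16 lost (1.90), and 147 lower ones, 34 kept and 101 lost. The calls were 608 higher and 498 lower, with 234 and 267 only without C-myc.

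Without the cells that hold Trdc 9 higher reference genes were lost (1.69), and of the lower ones (−1.0) 60 were kept, 46 in between and 16 lost, with 26 lower only without C-myc. The ratio of Nop58 turned to 0.16.

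With predicted loci left out and the same cells 5 higher reference genes were lost (2.33), and of the lower ones 33 were lost and 10 in between, with 359 calls lower. With at least 2000 transcripts of other genes the medians were 3.12 and −1.26, there were 27 lower reference genes with 5 in between and 8 lost, the calls were 538 higher and 487 lower, with 125 and 182 only without C-myc, and Cd4 turned to 0.87. With at least 1500 there were 32 lower reference genes, 4 in between and 12 lost (−0.94), 404 calls lower and 151 only without C-myc. With the remaining clone-named loci also left out the median of higher genes was 2.40. There were then 51 lower ones with 10 in between and 25 lost, 356 calls lower and 124 only without C-myc. Without the cells over 50% there were 2 higher genes in between (3.29), 21 lower reference genes with 2 in between and 4 lost (−1.59), 391 calls lower and 144 only without C-myc.

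Leaving out each library in turn gave 43 to 56 higher reference genes, 36 to 46 kept, 3 to 6 in between and 2 to 6 lost, with medians from 2.34 to 2.97, 299 to 353 calls higher and 56 to 106 only without C-myc. It gave 48 to 106 lower reference genes, 13 to 28 kept, 6 to 39 in between and 25 to 71 lost, with medians from −0.68 to 0.10, reversed without library 2 of the CD122+ cells. The number of lower calls stayed within 1.5 times that of the report, with at most 286, and 61 to 130 were lower only without C-myc.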
